A study of Mus musculus with 12 samples.

Results

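Pde3b, Rapgef4, Tgfbr3, Ntrk3 and Il1rl2 are 5 genes of 13404 rows in a table of estimated RNA-seq counts from mouse spleen CD4 T cells. They were chosen because their levels were lower in young regulatory T cells (Treg) than in young conventional CD4 T cells (Tconv), with no threshold stated, so that difference is given below as a description without a test. All 5 passed the filter on low counts, which kept 9495 genes for testing. Libraries came in 6 groups of 2, for 12 in all, from C57BL/6 mice whose CD4+CD25+ Treg and CD4+ Tconv had been sorted by flow cytometry. The groups are aged wild-type mice of over 18 months, mice of 2 months labelled Dcaf1-deficient, and young wild-type mice of 2 months, each as Treg and as Tconv. The labels give neither the deleted allele nor any Cre driver, and do not say whether replicates are separate animals or pools. P-values therefore measure only the spread between these libraries, which may be technical in part. In aged Treg, aged Tconv and labelled Dcaf1-deficient Treg, the female transcript Xist was high in replicate 2 only. It had 26583 to 43851 estimated counts there, against 38.6 to 63.0 in replicate 1, so these replicates are not repeats of the same sample.

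The 5 genes encode parts of signalling pathways that reach T cells from outside. Cyclic AMP (cAMP) is made by adenylyl cyclases and broken down by phosphodiesterases. It acts through protein kinase A and through the Epac exchange factors, which switch on the small GTPase Rap. Treg are known for a high cAMP content, and low Pde3b expression is a known feature of mouse Treg that depends on Foxp3. PDE3B, the product of Pde3b (chromosome 7, 114415281 to 114539251, plus strand), breaks down cAMP. Rapgef4 (chromosome 2, 71981240 to 72257474, plus strand) encodes the Epac protein EPAC2. Tgfbr3 (chromosome 5, 107106570 to 107289629, minus strand) encodes betaglycan, a co-receptor that presents TGF-beta to the signalling receptors. Ntrk3 (chromosome 7, 78175959 to 78738012, minus strand) encodes TrkC, a receptor tyrosine kinase for a neurotrophin. Il1rl2 (chromosome 1, 40324610 to 40367562, plus strand) encodes the ligand-binding chain of the interleukin-36 receptor, which signals together with the shared chain IL1RAP. Positions are those of the GENCODE annotation on mm10. Exons of Rapgef4 overlap the antisense gene Rapgef4os2 and exons of Tgfbr3 overlap the same-strand gene Gm43422. Neither neighbour has a row in the table, and whether the library kit kept the strand is not given in the sources used here, so reads from these neighbours cannot be told apart from those of Rapgef4 and Tgfbr3.

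Promoter windows of 250 bases before to 50 bases after the gene start were taken from RefSeq (GRCm38.p6), which matched Rapgef4 and Il1rl2, 2 of the 5 genes. These 2 are shown because the other genes had no matched window, and no link between promoter letters and levels was tested. Rapgef4 lies at chr2:71980965-71981264 and Il1rl2 at chr1:40324339-40324638, both on the plus strand. Capitals mark matches on either strand to the 7 motifs searched.
Rapgef4: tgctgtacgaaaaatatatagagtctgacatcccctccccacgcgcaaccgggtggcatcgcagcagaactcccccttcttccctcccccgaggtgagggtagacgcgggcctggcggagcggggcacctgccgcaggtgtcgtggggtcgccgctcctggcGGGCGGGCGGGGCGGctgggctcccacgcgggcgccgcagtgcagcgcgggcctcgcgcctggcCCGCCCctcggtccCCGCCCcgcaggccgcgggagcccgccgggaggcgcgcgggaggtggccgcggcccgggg
Il1rl2: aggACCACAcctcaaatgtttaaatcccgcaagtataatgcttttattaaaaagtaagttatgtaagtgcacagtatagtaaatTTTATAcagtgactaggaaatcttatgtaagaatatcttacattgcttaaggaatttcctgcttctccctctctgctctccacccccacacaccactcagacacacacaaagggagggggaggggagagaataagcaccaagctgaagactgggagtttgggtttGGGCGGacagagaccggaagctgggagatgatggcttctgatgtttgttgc
The Rapgef4 window was 76.7% G or C with 40 CpG dinucleotides, and the Il1rl2 window 43.7% with 3. The medians over 32851 windows were 52.7% and 7. The capitals in Rapgef4 are 5 GC boxes (GGGCGG, in 35.7% of all windows), the 3 upstream ones overlapping each other. Those in Il1rl2 are 1 GC box, 1 match to the RUNX letters TGTGGT (16.8% of windows) and 1 to the TATA box letters TATAAA on the minus strand (13.6%). The other motifs searched had no match in either window: the forkhead letters TGTTTAC (3.65% of windows), the cAMP response element TGACGTCA (1.79%), its core TGACG (20.8%) and the TCF/LEF letters CTTTGAT (3.73%). A match describes letters and not a bound site.

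Library depth ran from 18358477 to 26852448 estimated counts, so that 3 counts in a library equal 0.105 to 0.167 CPM (counts scaled to library size with TMM factors). The sorting marker gene Il2ra was at 763 and 969 CPM in aged Treg against 43.1 and 29.7 CPM in aged Tconv, at 774 and 576 against 49.2 and 48.7 CPM in the labelled libraries, and at 1337 and 887 against 31.8 and 63.2 CPM in the young. Foxp3, the transcription factor of Treg, was at 535 to 1986 CPM across the 6 Treg libraries, against 334 and 675 CPM in aged Tconv, 80.8 and 75.6 CPM in labelled Tconv and 47.7 and 78.4 CPM in young Tconv. Dcaf1, named Vprbp in the table, was at 102 and 101 CPM in labelled Treg against 144 and 128 CPM in young Treg, and at 132 and 132 CPM in labelled Tconv against 147 and 144 CPM in young Tconv. In aged wild-type libraries Dcaf1 was at 105 and 127 CPM in Treg and 117 and 90.5 CPM in Tconv. A level below the young libraries was thus not particular to the labelled ones. Reads summed over a gene cannot reveal the loss of a single exon, and the text therefore keeps to the wording labelled Dcaf1-deficient. Treg libraries also held transcripts of other blood cells. The summed level of the 6 macrophage markers present of 7 listed was 7868 and 553 CPM in aged Treg, 9393 and 11211 CPM in labelled Treg and 110 and 3106 CPM in young Treg, against 17.4 to 838 CPM in the 6 Tconv libraries, and no macrophage marker was at 0 in any library. B cell markers (4 of 5 present) summed to 76.9 to 2269 CPM in Treg and 37.7 to 368 CPM in Tconv. Erythroid markers (4 of 6 present) summed to 14.2 to 8944 CPM in Treg and 4.69 to 1148 CPM in Tconv, and neutrophil markers (6 of 7) to 0.283 to 539 CPM in Treg and 0.188 to 50.05 CPM in Tconv. Dendritic cell markers went the other way in labelled and young libraries: the 4 of 5 present summed to 34.7 and 37.7 CPM in labelled Treg against 331 and 344 CPM in labelled Tconv, and over all libraries to 6.45 to 62.9 CPM in Treg against 42.4 to 344 CPM in Tconv. CD8 and NK cell markers (3 of 7 present) summed to 6.64 to 48.7 CPM in Treg and 29.9 to 89.5 CPM in Tconv, and platelet markers (4 of 5) to 4.58 to 19.1 CPM in Treg and 6.04 to 11.4 CPM in Tconv. The part of these 5 lists in the results below was not tested. The 7 T cell genes present of 10 listed summed to 2051 to 5525 CPM in Treg and 5615 to 8460 CPM in Tconv. Fewer T cells of a kind in a library and less of an RNA per cell cannot be told apart in such bulk samples. Of the 12 libraries 6 correlated best with a library of another group over log2 CPM of all genes tested, among them 5 Treg libraries. Aged Treg 1 was closest to labelled Treg 1 (r = 0.993), against 0.914 with aged Treg 2, aged Treg 2 was closest to aged Tconv 2 (0.944), and young Treg 1 to young Tconv 1 (0.964).

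**Figure D1:**
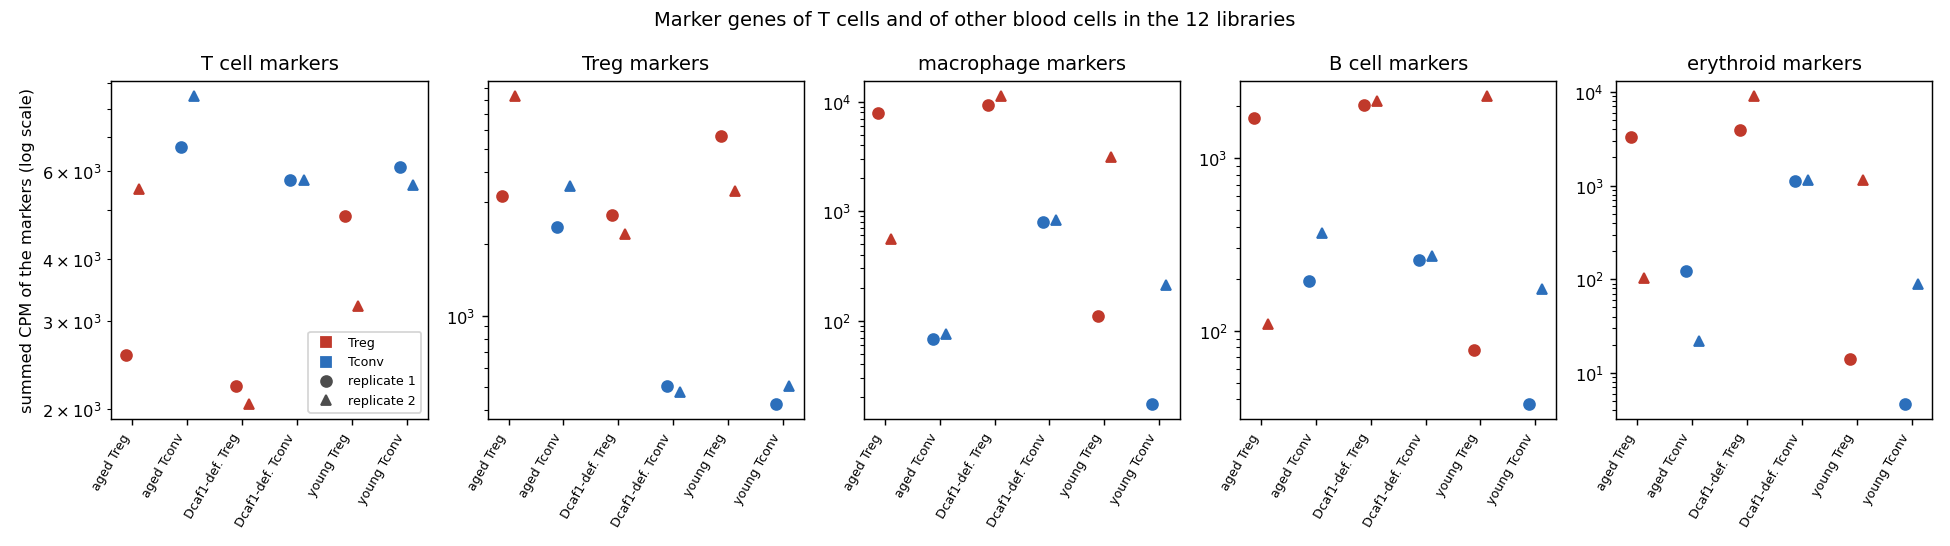
Summed CPM of marker genes (log scale) in the 12 libraries, for T cell, Treg, macrophage, B cell and erythroid markers; circles are replicate 1 and triangles replicate 2, Treg in red and Tconv in blue. Macrophage markers reached 11211 CPM in labelled Treg 2 and were at most 838 CPM in Tconv, and the aged Tconv libraries held 2354 and 3511 CPM of Treg markers.

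The difference between Treg and Tconv was tested in the aged and the labelled Dcaf1-deficient libraries, whose levels the stated reason for the choice does not name. The test is not fully independent of that choice. The genes were chosen with earlier results of these data known, and the young libraries entered the same estimate of spread. Averaged over both conditions, 4 of the 5 genes were lower in Treg: Ntrk3, Tgfbr3, Il1rl2 and Pde3b were called, and Rapgef4 was not. Of all 9495 genes tested, 6.76% were called lower in that comparison (edgeR's quasi-likelihood test, Benjamini-Hochberg adjusted p under 0.05). In these same 4 genes each of the 4 Treg libraries was below each of the 4 Tconv libraries, which held for 7.78% of all genes tested. In aged cells alone Ntrk3 was called, 1 of 5 against 0.527% of all genes. In labelled Dcaf1-deficient cells alone Ntrk3, Il1rl2 and Tgfbr3 were called, 3 of 5 against 1.35%. Replicates were unequally alike, while the fit used a single estimate of spread per gene for all groups. Their r of log2 CPM was 0.992 in labelled Tconv and 0.984 in labelled Treg, against 0.945 in aged Tconv and 0.914 in aged Treg. In young Tconv it was 0.981 and in young Treg 0.937.

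Pde3b, the cAMP phosphodiesterase, had 33.0 and 34.3 CPM in aged Treg, against 105 and 80.1 CPM in aged Tconv. It had 37.7 and 35.1 CPM in labelled Dcaf1-deficient Treg, against 156 and 158 CPM in labelled Tconv. It had 9.61 and 37.4 CPM in young Treg, against 213 and 201 CPM in young Tconv. Every Treg library was below every Tconv library, and young Treg 1 was the lowest of the 12, far below its replicate. The averaged difference between Treg and Tconv was -1.78 on the log2 scale (SE 0.34, 95% interval -2.57 to -0.99, edgeR adjusted p 0.0239). Within aged cells it was -1.46 (SE 0.48, edgeR adjusted p 0.193) and within labelled cells -2.11 (SE 0.48, edgeR adjusted p 0.0675), neither called. Leaving out 1 library in turn ended the averaged call for aged Treg 1, aged Tconv 1, any of the 4 labelled libraries or either young Tconv library, with edgeR adjusted p of 0.0507 to 0.102. Without young Treg 1 or young Treg 2, whose Pde3b levels lie far apart, the edgeR adjusted p in aged cells was 0.0133 or 0.0128 and that in labelled cells 0.00401 or 0.00382. In order, Pde3b was highest in young Tconv, then labelled Tconv, then aged Tconv, with no overlap between these, and the 3 Treg groups at the bottom could not be ordered beyond their spread.

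Rapgef4, which encodes EPAC2, had 17.3 and 6.63 CPM in aged Treg, against 31.9 and 7.70 CPM in aged Tconv. It had 15.9 and 20.02 CPM in labelled Dcaf1-deficient Treg, against 70.3 and 69.2 CPM in labelled Tconv. It had 32.5 and 31.9 CPM in young Treg, against 138 and 102 CPM in young Tconv. In labelled and young cells Treg lay below Tconv (in labelled cells as for 37.5% of all genes), while in aged cells Treg and Tconv overlapped, since aged Tconv 2 was as low as a Treg library. The averaged difference was -1.34 (SE 0.44, 95% interval -2.35 to -0.33, edgeR adjusted p 0.0799), that in aged cells -0.72 (SE 0.62, edgeR adjusted p 0.552) and that in labelled cells -1.96 (SE 0.62, edgeR adjusted p 0.123). Without aged Tconv 2 the averaged difference was -1.69 (edgeR adjusted p 0.0176), and without aged Tconv 1 it was -0.66 (edgeR adjusted p 0.209). In aged cells the sign turned without aged Tconv 1, to 0.64 (edgeR adjusted p 0.527), and in labelled cells the difference was called without either aged Tconv library (edgeR adjusted p 0.0384 and 0.0376). The order of levels was young Tconv, labelled Tconv and young Treg, and below or beside these the aged Tconv, labelled Treg and aged Treg groups. Aged Tconv overlapped each of the 3 Treg groups.

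Tgfbr3, which encodes betaglycan, had 16.4 and 5.71 CPM in aged Treg, against 89.6 and 46.6 CPM in aged Tconv. It had 17.8 and 17.6 CPM in labelled Dcaf1-deficient Treg, against 114 and 111 CPM in labelled Tconv. It had 23.9 and 22.8 CPM in young Treg, against 161 and 173 CPM in young Tconv. No Treg library overlapped a Tconv library, and none of the 6 groups overlapped another: from high to low they were young, labelled and aged Tconv, then young, labelled and aged Treg. The averaged difference was -2.64 (SE 0.31, 95% interval -3.37 to -1.92, edgeR adjusted p 0.00781). It was -2.62 in aged cells (SE 0.45, edgeR adjusted p 0.0535) and -2.67 in labelled cells (SE 0.44, edgeR adjusted p 0.0392), so the fitted Treg level was 0.163 and 0.157 times the Tconv level. Without labelled Tconv 1 the averaged call was lost (edgeR adjusted p 0.0519). Without any of the 4 labelled libraries or either young Tconv library the call in labelled cells was lost, with edgeR adjusted p of 0.0883 to 0.263. In aged cells the difference was called without aged Treg 1, aged Treg 2 or aged Tconv 2 (edgeR adjusted p 0.0140, 0.0407 and 0.0418).

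Ntrk3, the neurotrophin receptor gene, showed the largest difference of the 5. It had 2.20 and 5.15 CPM in aged Treg, against 62.8 and 156 CPM in aged Tconv. It had 1.79 and 1.09 CPM in labelled Dcaf1-deficient Treg, against 19.03 and 18.3 CPM in labelled Tconv. It had 3.15 and 2.64 CPM in young Treg, against 38.8 and 31.6 CPM in young Tconv. The Treg values rest on 25.7 to 112 estimated counts a library. Every Treg library was far below every Tconv library, and both aged Tconv libraries were above all others. The averaged difference was -4.29 (SE 0.36, 95% interval -5.12 to -3.47, edgeR adjusted p 0.00287). In aged cells it was -4.90 (SE 0.50, edgeR adjusted p 0.0139) and in labelled cells -3.68 (SE 0.51, edgeR adjusted p 0.0323). The averaged and the aged call held without any 1 library. The call in labelled cells was lost without any of the 4 labelled libraries or either young Tconv library, with edgeR adjusted p of 0.0742 to 0.241. Ntrk3 was highest in aged Tconv, then young Tconv, then labelled Tconv, without overlap. Among Treg, labelled Treg were lowest, and aged and young Treg overlapped.

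Il1rl2, the interleukin-36 receptor gene, had 2.65 and 3.31 CPM in aged Treg, against 11.4 and 6.04 CPM in aged Tconv. It had 3.09 and 2.31 CPM in labelled Dcaf1-deficient Treg, against 13.9 and 16.6 CPM in labelled Tconv. It had 1.84 and 2.42 CPM in young Treg, against 23.8 and 22.2 CPM in young Tconv. Treg and Tconv did not overlap (within aged cells as for 18.5% of all genes), although aged Tconv 2 came within a factor of 1.82 of aged Treg 2, on 72.0 estimated counts in Treg and 127 in Tconv. The averaged difference was -2.02 (SE 0.24, 95% interval -2.58 to -1.46, edgeR adjusted p 0.00743) and held without any 1 library. In aged cells it was -1.55 (SE 0.34, edgeR adjusted p 0.0913) and in labelled cells -2.49 (SE 0.34, edgeR adjusted p 0.0323). The call in labelled cells was lost without any of the 4 labelled libraries or either young Tconv library (edgeR adjusted p 0.0742 to 0.250), and in aged cells a call appeared without aged Tconv 2 (edgeR adjusted p 0.0377). Levels fell in the order young, labelled and aged Tconv without overlap, and the Treg groups lay lowest, aged overlapping labelled and labelled overlapping young.

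**Figure D2:**
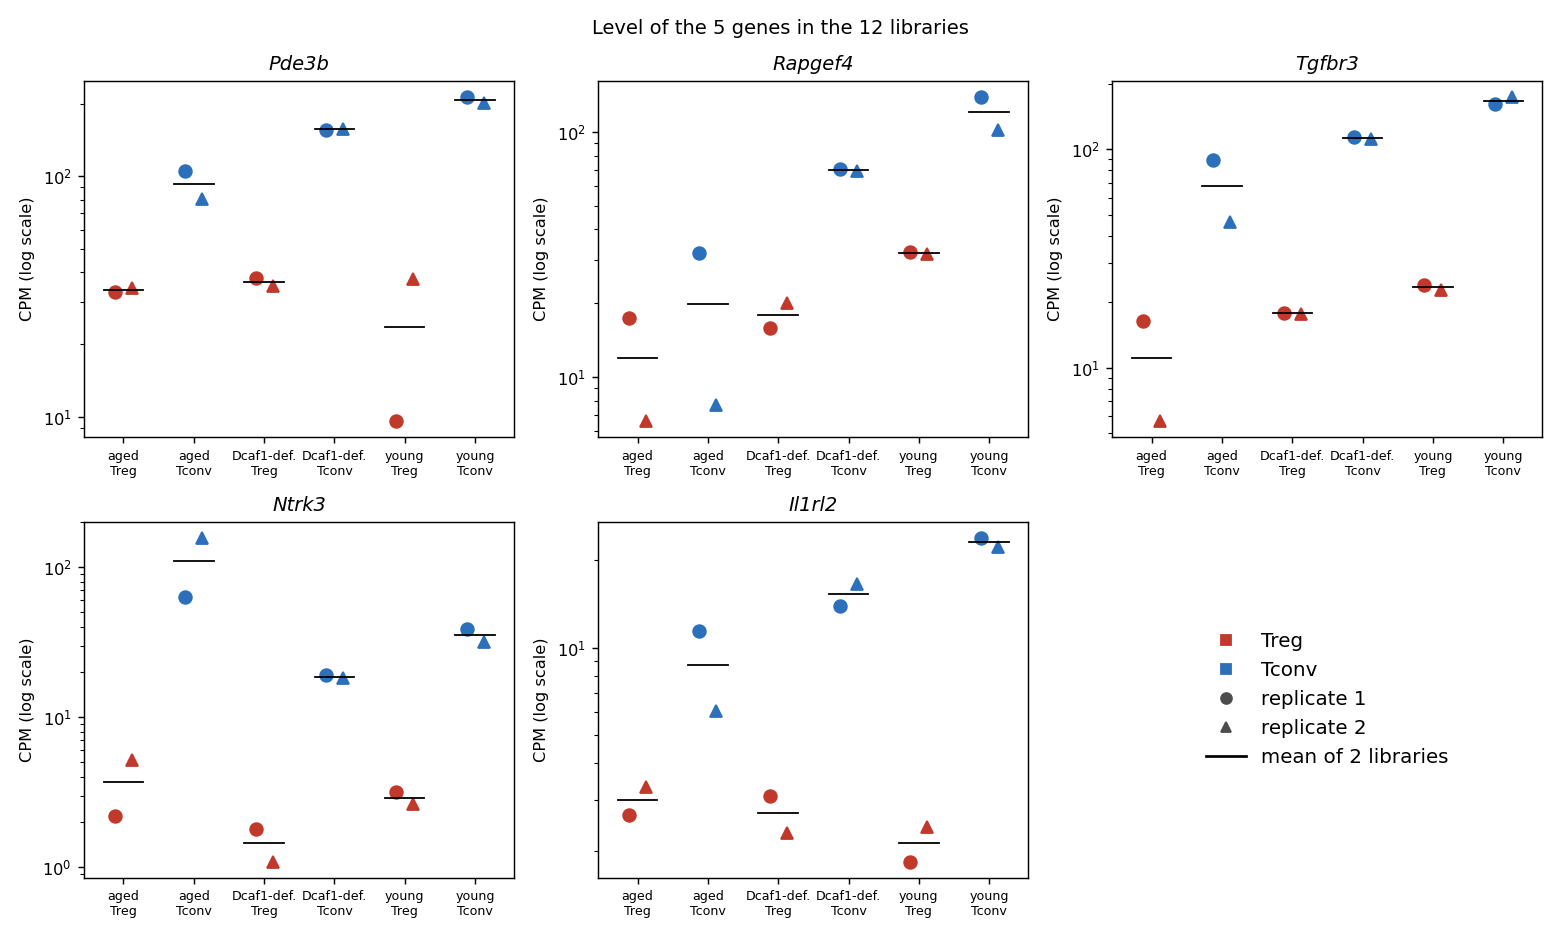
CPM (log scale) of Pde3b, Rapgef4, Tgfbr3, Ntrk3 and Il1rl2 in the 12 libraries; each point is a library, circles replicate 1 and triangles replicate 2, and lines are means of 2. Treg (red) lie below Tconv (blue) of the same condition, except that Rapgef4 overlaps in aged cells (17.3 and 6.63 CPM in Treg, 31.9 and 7.70 CPM in Tconv); Ntrk3 is highest in aged Tconv (62.8 and 156 CPM).

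The aged libraries numbered 2 share the title tag L3, whose meaning is not stated, and a high level of the female transcript Xist (2018 CPM in Treg, 1263 CPM in Tconv). In that pair the Treg level was 3.30% of the Tconv level for Ntrk3, 12.2% for Tgfbr3, 42.9% for Pde3b, 54.9% for Il1rl2 and 86.1% for Rapgef4. In the aged libraries numbered 1, which differ in tag, it was 3.50% for Ntrk3, 18.3% for Tgfbr3, 31.3% for Pde3b, 23.3% for Il1rl2 and 54.3% for Rapgef4. Ntrk3 thus stood at nearly the same share in both pairs, whereas Il1rl2 and Rapgef4 were closer to the Tconv level in the pair numbered 2. In labelled Dcaf1-deficient mice both Treg libraries carry L4 and both Tconv libraries L5, so tag and cell type cannot be told apart there. The labelled libraries numbered 1 differed in Xist, with 1.37 CPM in Treg and 1321 CPM in Tconv, while in the other 5 of 6 number pairs Treg and Tconv lay on the same side of 100 CPM.

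Since the T cell genes were lower in Treg libraries, the 5 genes were also set against them. Per 1000 counts of the 7 T cell genes, Ntrk3 had 0.856 and 0.933 in aged Treg against 9.39 and 18.5 in aged Tconv, and 0.807 and 0.532 in labelled Treg against 3.30 and 3.18 in labelled Tconv. Pde3b had 12.9 and 6.21 in aged Treg against 15.7 and 9.47 in aged Tconv, and 17.0 and 17.1 in labelled Treg against 26.99 and 27.4 in labelled Tconv. Rapgef4 had 6.76 and 1.20 in aged Treg against 4.78 and 0.910 in aged Tconv, and 7.16 and 9.76 in labelled Treg against 12.2 and 12.03 in labelled Tconv. Ntrk3 stayed fully separated on this scale. Tgfbr3 had 6.41 and 1.03 in aged Treg against 13.4 and 5.51 in aged Tconv, and 8.01 and 8.597 in labelled Treg against 19.8 and 19.4 in labelled Tconv. Il1rl2 had 1.03 and 0.5996 in aged Treg against 1.70 and 0.713 in aged Tconv, and 1.39 and 1.13 in labelled Treg against 2.41 and 2.88 in labelled Tconv. In aged cells Pde3b, Rapgef4, Tgfbr3 and Il1rl2, 4 of the 5, thus overlapped between Treg and Tconv, whereas in labelled cells none did. How many of all genes overlapped on this scale was not counted, so nothing is read from these counts. In CPM, 18.5% of all genes were lower in Treg without overlap in aged cells and 37.5% in labelled cells. Scaling all genes to these T cell genes moved the median log2 difference of all genes from -0.02 to 1.23. On that scale the averaged difference was -3.11 for Ntrk3 (edgeR adjusted p 0.000782) and -1.29 for Tgfbr3 (0.034), both called, and -0.82 for Il1rl2 (0.0761), -0.54 for Pde3b (0.299) and -0.02 for Rapgef4 (0.979), not called. Relative to the moved median these were -4.35, -2.53, -2.05, -1.77 and -1.25. With terms for the macrophage and B cell markers in the fit edgeR called 0 of all 9495 genes (604 with an unadjusted p under 0.05, against 3230 without these terms), so none of the 5 was called either (edgeR adjusted p 0.451 to 0.994). The averaged differences were -4.33 for Ntrk3, -2.22 for Tgfbr3, -1.92 for Il1rl2, -1.85 for Pde3b and -0.21 for Rapgef4. Without aged Treg 1 they were -4.05, -3.12, -1.94, -1.77 and -1.77, with edgeR adjusted p of 0.00565, 0.00229, 0.0155, 0.0554 and 0.066.

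Whether the Treg to Tconv difference itself changed between the aged and the labelled Dcaf1-deficient condition was tested as a difference of differences. No gene of all tested was called by edgeR there; 702 genes had an unadjusted p under 0.05, DESeq2 called 138 and limma 2. The aged minus the labelled difference was 1.24 for Rapgef4 (95% interval -0.78 to 3.25), 0.95 for Il1rl2 (-0.17 to 2.07), 0.65 for Pde3b (-0.93 to 2.22), 0.05 for Tgfbr3 (-1.40 to 1.502) and -1.22 for Ntrk3 (-2.87 to 0.43). These intervals are wide, each including 0 and changes of over 2-fold. In young cells, which chose the genes, the difference was -3.60 for Ntrk3, -3.43 for Il1rl2, -3.14 for Pde3b, -2.84 for Tgfbr3 and -1.90 for Rapgef4. Of all genes 0.305% were called lower in young Treg.

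**Figure D3:**
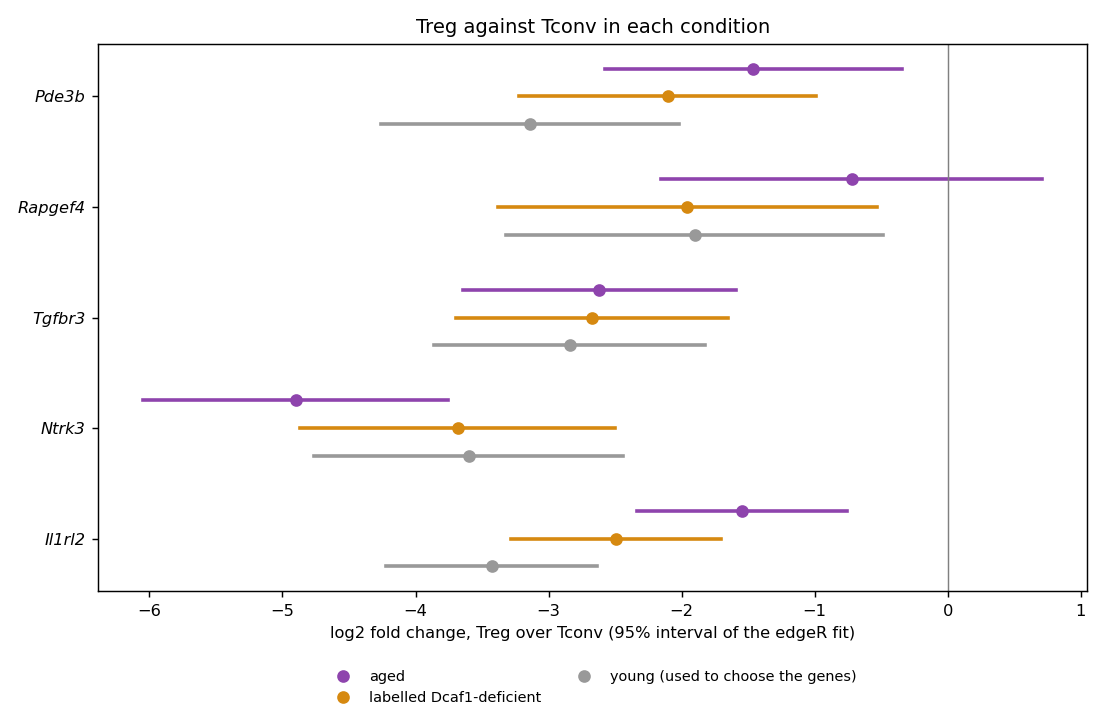
Log2 fold change of Treg over Tconv with its 95% interval from the edgeR fit, in aged, labelled Dcaf1-deficient and young libraries (2 against 2 each); the young values, in grey, are those the genes were chosen on. The 10 aged and labelled points lie below 0, and of their intervals that of Rapgef4 in aged cells (-2.16 to 0.71) crosses 0.

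Age was compared within each cell type. The aged libraries numbered 2 had high Xist (2018 CPM in Treg, 1263 CPM in Tconv) and the tag L3. All young libraries had Xist at 1.41 to 2.64 CPM and the tag L4 or L5. Sex and tag are thus partly tied to age in these comparisons. The young libraries also chose the genes, so these comparisons are not independent of the choice, and the aged and the labelled comparison share them. In Tconv, Rapgef4 fell to 31.9 and 7.70 CPM in aged Tconv, against 138 and 102 CPM in young Tconv (a log2 difference of -2.60 with SE 0.62, edgeR adjusted p 0.0478). Il1rl2 fell to 11.4 and 6.04 CPM in aged Tconv, against 23.8 and 22.2 CPM in young Tconv (-1.40, SE 0.34, edgeR adjusted p 0.0460). Of all genes tested 2.47% were called lower; since the genes were chosen on the same young Tconv libraries, nothing is read from the count of 2 of 5. Tgfbr3 (-1.30, edgeR adjusted p 0.106) and Pde3b (-1.16, edgeR adjusted p 0.168) were not called, though both aged libraries lay below both young ones, as in 29.1% of all genes. Ntrk3 differed in the other direction, with 62.8 and 156 CPM in aged Tconv against 38.8 and 31.6 CPM in young Tconv (1.64, SE 0.49, edgeR adjusted p 0.0782). It was not called, where 6.38% of all genes were called higher, and 29.9% were higher without overlap. Both calls sit close to the threshold: leaving out aged Tconv 2, either young library of either cell type or any of the 4 labelled libraries gave edgeR adjusted p of 0.0593 to 0.234 for both. Both calls also ended when scaled to the T cell genes (edgeR adjusted p 0.150 for Rapgef4 and 0.193 for Il1rl2), without the filter (0.0508 and 0.0505), in the fit of these groups alone (0.183 and 0.182) and with the sex term (0.0621 and 0.0941). That of Il1rl2 ended with the replicate block (edgeR adjusted p 0.0578), the tag term (0.120) and the macrophage and B cell terms (0.0558) as well. Without young Treg 1 or young Treg 2, Pde3b was called instead (edgeR adjusted p 0.0208 and 0.0204). Without aged Tconv 1, without aged Treg 1 or without aged Treg 2, Tgfbr3 and Ntrk3 were called as well. Beside these values, the 6 Treg markers summed to 2354 and 3511 CPM in aged Tconv against 427 and 508 CPM in young Tconv, while Il2ra was at 43.1 and 29.7 CPM against 31.8 and 63.2 CPM. What part this had in the differences was not tested.

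In Treg, none of the 5 genes was called between aged and young libraries, and edgeR called no gene of all tested (1697 had an unadjusted p under 0.05, DESeq2 called 722 and limma 2). Tgfbr3 had 16.4 and 5.71 CPM in aged Treg against 23.9 and 22.8 CPM in young Treg, a difference of -1.07 (95% interval -2.10 to -0.04, edgeR adjusted p 0.270). Rapgef4 had 17.3 and 6.63 CPM in aged Treg against 32.5 and 31.9 CPM in young Treg, a difference of -1.42 (95% interval -2.85 to 0.01, edgeR adjusted p 0.287). In both, aged and young Treg did not overlap, which held in this direction for 22.4% of all genes, and aged Treg 2 was the lower of the aged pair. It had the least macrophage transcripts of the pair. It also differed from aged Treg 1 in Xist (2018 against 2.38 CPM) and in tag (L3 against L4). The part of each in these levels was not tested beyond the fits with such terms. The differences of Pde3b (0.52), Il1rl2 (0.48) and Ntrk3 (0.34) were positive and not called; only Il1rl2 was higher in both aged libraries than in both young ones, as were 20.2% of all genes. Without aged Treg 1, Tgfbr3 was called lower (-2.03, edgeR adjusted p 0.0300). Without aged Treg 1 and young Treg 2 together, Pde3b was called higher (1.80, edgeR adjusted p 0.0192), while without young Treg 1 its difference was -0.15.

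The labelled Dcaf1-deficient libraries were compared with young wild-type libraries of the same age. In Tconv all 5 genes were lower in both labelled libraries than in both young ones: the log2 differences were -0.92 for Ntrk3, -0.79 for Rapgef4, -0.59 for Il1rl2, -0.57 for Tgfbr3 and -0.40 for Pde3b. The same holds for 32.7% of all genes, and edgeR called none (edgeR adjusted p 0.549 to 0.769 for the 5 genes; 954 genes with an unadjusted p under 0.05; DESeq2 called 227 genes and limma 1). Fitted with these groups alone, Pde3b, Rapgef4, Tgfbr3 and Ntrk3 were called, where 12.2% of all genes were called and 5.15% lower. The genes were chosen on these same young Tconv libraries, which favours lower values in the labelled ones, so nothing is read from these counts. Xist was at 1321 and 1339 CPM in labelled Tconv against 2.39 and 2.64 CPM in young Tconv, so sex and label cannot be told apart within this comparison. With a sex term over all 12 libraries the differences were 0.26 for Rapgef4, 0.25 for Tgfbr3, -0.25 for Pde3b, -0.25 for Il1rl2 and -1.61 for Ntrk3, none called (edgeR adjusted p 0.632 to 0.895). In Treg the differences were 0.63 for Pde3b, 0.34 for Il1rl2, -0.40 for Tgfbr3, -0.84 for Rapgef4 and -0.998 for Ntrk3, none called (edgeR adjusted p 0.260 to 0.572; 2359 genes with an unadjusted p under 0.05; DESeq2 called 1185 genes and limma 0). Ntrk3, at 1.79 and 1.09 CPM in labelled Treg against 3.15 and 2.64 CPM in young Treg, did not overlap, nor did Rapgef4 and Tgfbr3, all lower, as for 36.9% of all genes. Pde3b was called higher without young Treg 2 (1.92, edgeR adjusted p 0.0366), and its difference was -0.04 without young Treg 1. Macrophage markers were at 9393 and 11211 CPM in labelled Treg against 110 and 3106 CPM in young Treg, and the 7 T cell genes at 2221 and 2051 CPM against 4884 and 3216 CPM. Their part in these differences was not tested beyond the fits with marker terms.

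**Figure D4:**
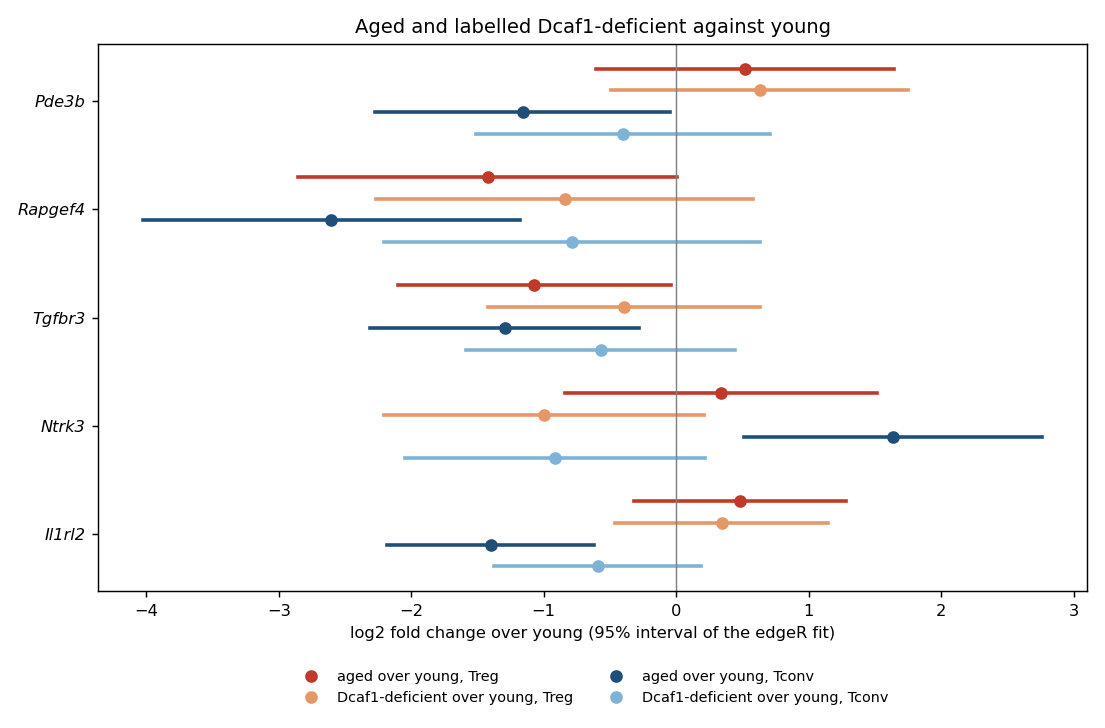
Log2 fold change over young libraries of the same cell type, with its 95% interval from the edgeR fit, for aged and labelled Dcaf1-deficient libraries (2 against 2 each). Rapgef4 (-2.60) and Il1rl2 (-1.40) in aged Tconv are the 2 called values; Ntrk3 in aged Tconv lies to the right of 0 (1.64).

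The genes around each of the 5 were followed in the averaged comparison, from lists of the pathways written with earlier results of these data known. In that comparison 5.68% of all genes were called higher in Treg and 6.79% were higher without overlap. All counts of calls below depend on the scaling: scaled to the T cell genes, where 7820 of all genes were called higher and 57 lower, 7 of 10 other cAMP breakdown, 8 of 10 cAMP synthesis, 16 of 16 cAMP effector, 12 of 14 Rap, 16 of 19 TGF-beta, 13 of 16 IL-1 family and 3 of 3 neurotrophin genes were called higher and 0 lower. Among 10 other cAMP phosphodiesterases tested, 1 was called higher and 1 lower. Pde8b had 8.25 and 5.94 CPM in aged Treg against 2.83 and 2.14 CPM in aged Tconv, and 8.97 and 12.2 CPM in labelled Treg against 3.07 and 3.76 CPM in labelled Tconv (1.57, edgeR adjusted p 0.0198). Pde7a had 114 and 77.0 CPM in aged Treg against 196 and 181 CPM in aged Tconv, and 115 and 119 CPM in labelled Treg against 156 and 156 CPM in labelled Tconv (-0.70, edgeR adjusted p 0.0279). Both changed without overlap, in opposite directions. Among these Treg libraries Pde8b was lowest in aged Treg 2, with the least macrophage transcripts, and highest in labelled Treg 2, with the most. The part of those transcripts in this was not tested. Pde4b (-0.24, edgeR adjusted p 0.181) and Pde4d (-0.75, edgeR adjusted p 0.127), members of the family that is abundant in T cells, were not called, nor was Pde8a (1.31, edgeR adjusted p 0.0525). The median over these 10 genes was 0.74, against -0.02 for all genes tested. Of 10 genes for cAMP synthesis, 1 was called, the adenylyl cyclase gene Adcy3 (0.40, edgeR adjusted p 0.0194).

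The other Epac gene took the opposite direction to Rapgef4. Rapgef3, which encodes EPAC1, had 5.98 and 2.53 CPM in aged Treg against 1.67 and 0.523 CPM in aged Tconv, and 6.26 and 6.46 CPM in labelled Treg against 1.46 and 0.916 CPM in labelled Tconv (2.19, SE 0.46, edgeR adjusted p 0.0289). Each Treg library was above each Tconv library. Among these Treg libraries Rapgef3 was highest in those with the most macrophage transcripts and lowest in aged Treg 2, and their part in this was not tested. Among the protein kinase A genes, Prkar1b, a regulatory subunit, had 18.1 and 4.42 CPM in aged Treg against 0.389 and 0.143 CPM in aged Tconv, and 21.3 and 30.3 CPM in labelled Treg against 1.81 and 2.94 CPM in labelled Tconv (4.42, edgeR adjusted p 0.00904). Its highest Treg values were in the libraries with the most macrophage transcripts. The catalytic subunit gene Prkacb had 249 and 271 CPM in aged Treg against 383 and 353 CPM in aged Tconv, and 239 and 244 CPM in labelled Treg against 399 and 399 CPM in labelled Tconv (-0.61, edgeR adjusted p 0.00815). Of 16 other cAMP effector genes tested, 4 were called higher (Prkar1b, Rapgef3 and the kinase anchor genes Akap7 and Akap1) and 1 lower (Prkacb). Of 14 other genes of the Rap GTPase list, Rapgef3 was called higher and 5 were called lower. These were Apbb1ip, which encodes the Rap effector RIAM (-0.37), Rassf5, which encodes the Rap effector RAPL (-0.56), Rapgef1 (-0.33), Sipa1l3 (-0.47) and Rapgef2 (-1.08). Rapgef6, another exchange factor for Rap, was not called (-0.29, edgeR adjusted p 0.362). The median of this list was -0.24. Scaled to the T cell genes, the differences of Pde7a, Prkacb and the 5 lower Rap genes turned positive, with the median of all genes at 1.23 on that scale.

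In the TGF-beta pathway Tgfbr3 was called lower and none of the 19 other genes tested was, whereas 3 were called higher. Tgfbr1, which encodes the signalling type I receptor, had 230 and 261 CPM in aged Treg against 74.4 and 53.8 CPM in aged Tconv, and 221 and 279 CPM in labelled Treg against 143 and 150 CPM in labelled Tconv (1.35, SE 0.12, edgeR adjusted p 0.00287). The receptor and the co-receptor thus differed in opposite directions, without overlap in either. Tgfb1, the ligand gene, was higher in Treg (0.61, edgeR adjusted p 0.0143). Eng, which encodes the co-receptor endoglin, was higher as well (3.30, edgeR adjusted p 0.0333), at 16.4 and 2.95 CPM in aged Treg and 21.4 and 27.2 CPM in labelled Treg, against 0.389 and 0.238 CPM in aged Tconv and 7.76 and 7.67 CPM in labelled Tconv. Its Treg values are highest in the 3 libraries with the most macrophage transcripts, whose part in this was not tested. The type II receptor gene Tgfbr2 was not analysed here.

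In the IL-1 family none of the 16 other genes tested was called lower with Il1rl2, although 6 of them had a difference below 0. Il1rl1, which encodes the IL-33 receptor ST2, had 106 and 260 CPM in aged Treg against 14.2 and 9.89 CPM in aged Tconv, and 113 and 92.7 CPM in labelled Treg against 30.3 and 32.2 CPM in labelled Tconv (2.82, SE 0.27, edgeR adjusted p 0.00422). Each Treg library was above each Tconv library, the reverse of Il1rl2. Il1rap, the chain that both receptors share, was not called (-0.42, edgeR adjusted p 0.230) and its groups overlapped. The family genes called higher were 3, namely Il1rl1, the adaptor kinase gene Irak2 (0.46) and the cytokine gene Il1a (5.30, with the groups overlapping). For Ntrk3, 3 other neurotrophin genes were tested, and the adaptor gene Shc1 was called lower by a small amount (-0.23, edgeR adjusted p 0.0363), with the sign turned to 1.02 when scaled to the T cell genes. Ntrk2 was not analysed here.

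**Figure D5:**
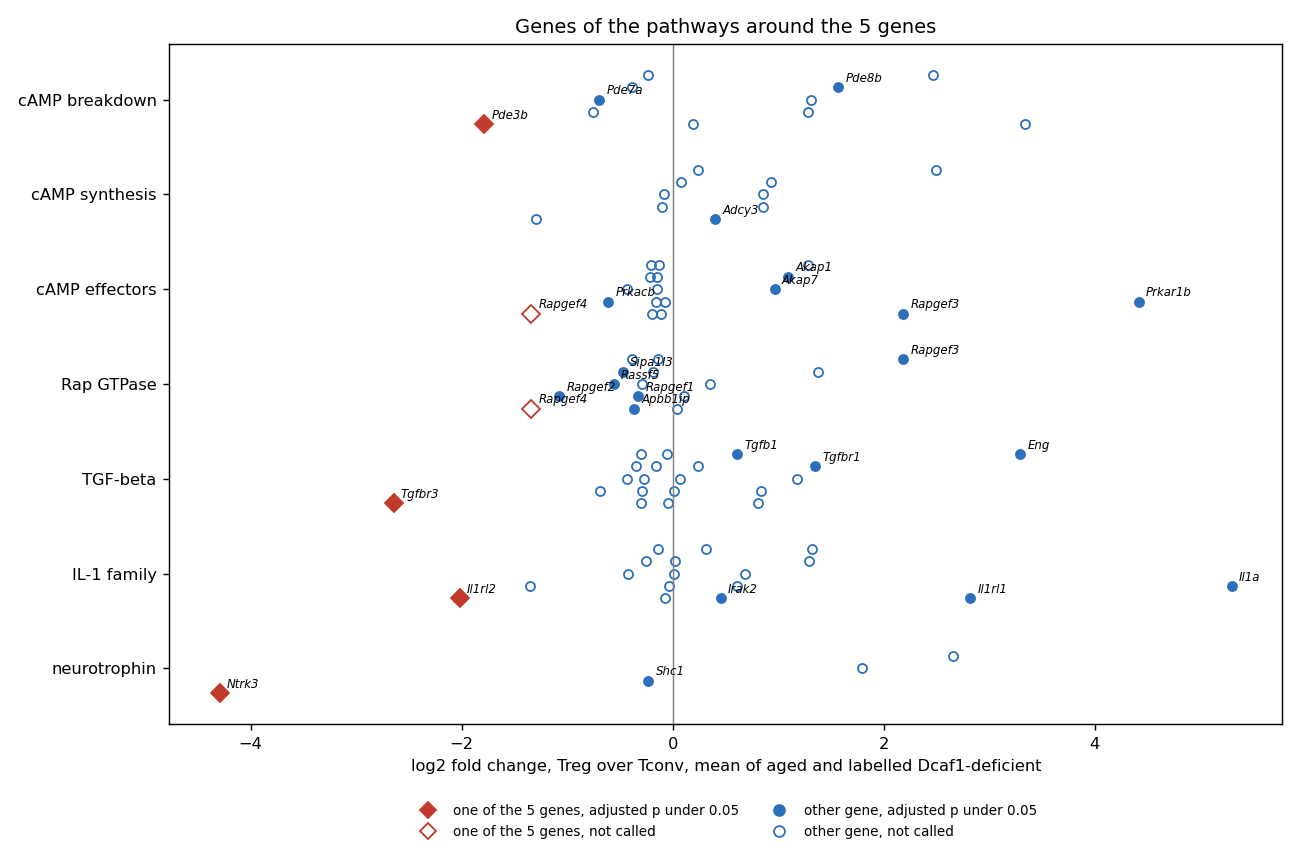
Log2 fold change of Treg over Tconv, averaged over aged and labelled Dcaf1-deficient libraries (4 against 4), for the genes of 7 pathway lists; each point is a gene, filled where the edgeR adjusted p is under 0.05, with the 5 chosen genes as red diamonds. Tgfbr1 (1.35) and Il1rl1 (2.82) lie on the opposite side of 0 from Tgfbr3 (-2.64) and Il1rl2 (-2.02), and Rapgef3 (2.19) from Rapgef4 (-1.34). Among the aged and labelled Treg libraries Rapgef3 was highest in those with the most macrophage transcripts.

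The genes whose levels ran most like each of the 5 were sought among 7502 genes by Pearson's r of log2 CPM over the 12 libraries, given as a description since the libraries share cell type, condition and depth. Tgfbr3 ran closest to the sulphotransferase gene Hs3st3b1 (r = 0.990), which had 5.91 and 2.58 CPM in aged Treg against 40.05 and 13.02 CPM in aged Tconv, 5.20 and 6.13 CPM in labelled Treg against 55.7 and 53.1 CPM in labelled Tconv, and 8.05 and 9.17 CPM in young Treg against 70.3 and 73.7 CPM in young Tconv. Within the 6 Treg libraries this r was 0.964, and within the 6 Tconv libraries 0.977. Ntrk3 ran closest to Spsb1 (r = 0.988) and to Fasl (0.986), the death ligand gene of activated T cells. Fasl had 6.13 and 8.51 CPM in aged Treg against 32.8 and 79.9 CPM in aged Tconv, 5.80 and 4.87 CPM in labelled Treg against 23.9 and 22.8 CPM in labelled Tconv, and 6.498 and 6.92 CPM in young Treg against 23.6 and 25.1 CPM in young Tconv. Like Ntrk3, it was highest in aged Tconv 2. Rapgef4 ran closest to Ube2d1 (0.986), Foxk1 (0.982) and Dirc2 (0.981), with r of 0.941 to 0.997 within either cell type. Among the genes most like Pde3b were Adam11 (r = 0.941) and Pdlim4 (0.933). Adam11 had 0.377 CPM in young Treg 1 and 5.45 CPM in young Treg 2, and so shared the low value of young Treg 1 with Pde3b. Il1rl2 ran closest to Tmem9b (0.962), Sema4f (0.958) and Klhdc2 (0.956), but its r within the 6 Treg libraries was 0.244 to 0.566, where its level ran from 1.84 to 3.31 CPM.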

How the data were processed

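Poly(A)-enriched RNA of sorted spleen T cells was sequenced, per the labels' protocols. The authors deposited estimated counts per gene from Salmon 0.9.1 on mm10, per the submitters' processing notes, and a table of log2 values scaled with DESeq2, whose exact transform is not given in the sources used here. Estimated counts (23.5% of them whole) were rounded. All 12 libraries entered a single quasi-likelihood model of 6 group means (6 residual degrees of freedom; edgeR 4.0.16, R 4.3.3) with TMM scaling and filterByExpr, which removed 1991 genes that had counts. P-values were adjusted by Benjamini-Hochberg over 9495 genes in each of 8 comparisons, with a threshold of 0.05. Log2 CPM used a prior count of 2. Intervals are 95% intervals of the fit, and the floor of 3 counts covers counting error only.

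Groups came from the sample titles. The 5 genes, the 7 pathway lists and the 9 marker lists were chosen with earlier results of these data known. Other genes named were up to 4 called members of each pathway list, fixed close relatives, and for each of the 5 the 3 genes with the highest r among genes averaging at least 4 CPM, of which 1 is not reported here. Further called list members and Pde8a were named after their values were seen. Alternatives were RLE size factors, scaling to T cell genes, no filter, DESeq2 1.42.0, limma 3.58.1 on the deposited log2 values, fits of the compared groups alone, a replicate block, terms for title tag, macrophage and B cell markers and sex (Xist above 100 CPM), and leaving out each library. Leaving out aged Treg 1 with young Treg 2, and a block with the aged Treg numbers crossed, were added after seeing the data. The procedure was also run on simulated data with the same spread per gene in all groups. Replicates in the real data were unequally alike, so nothing is read from that run.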

Additional observations from a re-analysis of the deposited data

Results flagged for a closer look

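Every aged library lay above every young one for Il1rl2 in Treg and below in Tconv. In Treg the aged libraries had 2.65 and 3.31 CPM against 1.84 and 2.42 CPM in the young ones, a log2 difference of 0.482702 that was not called (edgeR adjusted p 0.487, and in none of the alternatives run). In Tconv the aged libraries had 11.4 and 6.04 CPM against 23.8 and 22.2 CPM in the young ones, a log2 difference of -1.40117 (edgeR adjusted p 0.0460). Of all genes tested, 20.2% were higher without overlap in aged than in young Treg. In Tconv 29.1% were lower without overlap in aged libraries. Il1rl2 was chosen on these same young libraries, as lower in Treg than in Tconv, so neither direction is independent of the choice. The difference between these effects was not tested.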

How the results depend on the processing

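Of 925 log2 differences of the 5 genes recomputed under 24 alternatives, 783 kept their direction and their side of the threshold, 72 lost a call, 47 gained one and 23 changed sign. Of the 5 genes, 4 were called in the averaged comparison of Treg with Tconv, against 2 when scaled to the T cell genes, 2 with the tag term and 0 with macrophage and B cell terms, and 2 to 5 when libraries were left out in turn (2 without labelled Tconv 1, 5 without aged Tconv 2). In aged cells 1 was called, against 4 with DESeq2, 2 with limma, 0 in the fit of these groups alone, 2 with the tag term, 0 with macrophage and B cell terms, 2 with the sex term, 3 without aged Treg 1 and young Treg 2, and 1 to 3 when libraries were left out in turn. In labelled cells 3 were called, against 1 when scaled to the T cell genes, 5 with DESeq2 (15.6% of all genes called), 5 in the fit of these groups alone (51.8% of all genes called), 0 with macrophage and B cell terms, and 0 to 4 when libraries were left out in turn. Between aged and young Tconv 2 were called, against 0 when scaled to the T cell genes, 0 without the low-count filter, 4 with DESeq2, 0 in the fit of these groups alone, 1 with the replicate block, 1 with the tag term, 1 with macrophage and B cell terms, 0 with the sex term, 4 without aged Treg 1 and young Treg 2, and 0 to 4 when libraries were left out in turn. Between aged and young Treg, and between labelled and young Treg, 0 were called, against 1 in each without aged Treg 1 and young Treg 2 and 0 to 1 when libraries were left out in turn. Between labelled and young Tconv 0 were called, against 4 in the fit of these groups alone (12.2% of all genes called). The counts over all genes moved as well. In aged cells the main fit called 78 of all genes and DESeq2 971. The fit of these groups alone and that with macrophage and B cell terms called 0 there. The 0 of 5 in these fits is therefore not particular to the 5 genes. Between aged and young Tconv the main fit called 841 of all genes, DESeq2 2043 and the fit of these groups alone 3. Where no count over all genes is given, nothing is read from the count of the 5. The causes of these changes were not tested.

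Signs turned mostly where the difference was small. Rapgef4 in aged Treg against aged Tconv came to 0.483752 when scaled to the T cell genes and 1.31336 with macrophage and B cell terms, and ranged from -1.57711 to 0.642328 when libraries were left out. The aged minus labelled difference of Tgfbr3 came to -0.11285 when scaled to the T cell genes, -0.00312954 with the tag term and -0.935359 without aged Treg 1 and young Treg 2, and ranged from -0.901412 to 0.624149 when libraries were left out. In aged against young Treg, Ntrk3 came to -0.360199 with the tag term, -0.289771 with macrophage and B cell terms and -0.100464 with the sex term, and ranged from -0.398103 to 0.829859, and Pde3b from -0.152381 to 1.80913. In labelled against young Treg, Pde3b ranged from -0.042734 to 1.91839. Scaled to the T cell genes, with macrophage and B cell terms and with the sex term, Tgfbr3 there came to 0.473278, 0.042745 and 0.0659819, and Rapgef4 to 0.0302178 and 0.242692 under the T cell scaling and the marker terms. In labelled against young Tconv, macrophage and B cell terms and the sex term gave 0.564209 and 0.25778 for Rapgef4 and 0.0657776 and 0.252654 for Tgfbr3.

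Over all genes, calls in the averaged comparison were 539 higher and 642 lower, against 7820 and 57 when scaled to the T cell genes, which moves the median of all genes to 1.23. In the aged comparison they were 28 and 50, against 173 and 7, and in the labelled comparison 83 and 128, against 6765 and 28. Between aged and young Tconv they were 606 and 235, against 239 and 10. The count of genes called ran from 0 to 7877 over the settings without a left-out library in the averaged comparison (main 1181), from 0 to 971 in the aged (78), from 12 to 6793 in the labelled (211) and from 3 to 2043 between aged and young Tconv (841). Same-numbered libraries did not deviate together throughout: over 15 pairs of groups the correlation of their deviations ran from -0.66 to 0.68, and 4 were over 0.1. Between Treg and Tconv of a condition it was 0.27 in aged, 0.04 in labelled and 0.68 in young libraries. The replicate block left 4, 1 and 3 of the 5 genes called in the averaged, aged and labelled comparison and changed the count between aged and young Tconv to 1. With the aged Treg numbers crossed, the block called 0 genes between aged and young Treg. With 2 libraries a group, a p that misses the threshold does not show that levels were alike, and the lowest Treg value, that of Ntrk3 in labelled Treg 2, rests on 25.7 counts.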
